A study of Sus scrofa with 17 samples.

Results

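A set of 6 annotated pig genes that carry an Ensembl identifier but no gene symbol were followed through the diets in the longissimus muscle of weaned piglets. These 6 transcripts, of 31908 genes in the deposited counts, were selected on measured values of these same libraries, as genes without a symbol that were abundant or that differed between diets. Their differences between diets are therefore given as a description, with no test. The male Large White × Duroc piglets were housed in metabolic cages, entered the trial at 28 days of age, were adapted for 5 days and were fed the diets for 2 weeks. The 6 control libraries came from piglets on a diet without seaweed, the 6 UL libraries from piglets fed 7% Ulva lactuca, a green seaweed, and the 5 ULU libraries from piglets fed 7% Ulva lactuca plus the enzyme ulvan lyase at 0.01%, which breaks down ulvan, a polysaccharide of the seaweed's cell wall. Each library was 1 piglet, and RNA was read as single reads of 75 nt.

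Genes without a symbol are of several kinds. Some are long noncoding RNAs, transcripts that do not code for protein and that can act in the nucleus or the cytoplasm as RNA; some are stretches of a longer known gene that the annotation lists on their own; and some lie in repeated DNA such as the ribosomal RNA genes, where near-identical copies make it hard to place a read. In muscle, as in other tissues, noncoding transcripts range from among the most abundant RNAs to a few reads per library. The values below are CPM, a gene's share of the library after edgeR's TMM scaling expressed per 1e6 reads, and RPKM, the CPM per kilobase of exons, which was used to set the levels of the 6 transcripts against each other.

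Of the 31908 genes, 16879 had no symbol in the identifier table, and 6210 had no read in any library. All 6 transcripts passed the filter on low counts, with 14203 genes, and the sparsest passed only through the diets in which it was higher. Libraries held 16137365 to 26546810 counted reads, so that 3 reads, taken as the smallest detectable signal, were 0.130 to 0.195 CPM. The share of reads on the mitochondrial chromosome was 14.05 to 15.9% in control, 8.64 to 14.8% in UL and 8.002 to 11.6% in ULU, and the ranges of control and ULU did not overlap. Of 9 skeletal muscle markers 5 could be matched by symbol (not MYH1, MYH4, MYH7 or MB), and all had reads. Their summed level was 86890 to 140231 CPM in control, 111767 to 150188 in UL and 126910 to 238077 in ULU, with medians of 116921, 139167 and 170196 CPM. ACTA1 made up the largest part of the sum, with means of 67349, 79953 and 104742 CPM in control, UL and ULU. The means of CKM, MYH2 and TNNT3 had the same order, while DES was highest in UL (776, 988 and 903 CPM). For 6 other cell types (adipocyte, erythroid, endothelial, leukocyte, fibroblast, and Schwann and nerve), every matched marker had reads, and none was called in any comparison. The adipocyte sum was 75.9 to 580 CPM in control, 55.0 to 179 in UL and 25.2 to 143 in ULU, and the leukocyte sum 21.7 to 113, 32.3 to 75.0 and 15.6 to 107. The part of these cell types in the differences below was not tested, values that bear on the mitochondrial share are given further on, and in bulk muscle fewer cells of a type and less RNA per cell cannot be told apart.

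The 6 transcripts covered nearly the whole range of expression. By mean RPKM, ENSSSCG00000048719 was at rank 7 of 14203 genes and ENSSSCG00000047773 at rank 13901. The order of the 6 was ENSSSCG00000048719 (14881 RPKM), ENSSSCG00000048856 (43.1 RPKM), ENSSSCG00000041461 (17.1 RPKM), ENSSSCG00000047432 (3.26 RPKM), ENSSSCG00000041001 (1.22 RPKM) and ENSSSCG00000047773 (0.0882 RPKM). The mean was highest in UL for 5 of the 6 and lowest in ULU for 5 of the 6, and 4 of the 6 had the order UL, control, ULU. Among all genes tested, 28.7% were highest in UL, 39.7% lowest in ULU and 15.4% in that order. The transcripts were selected on these differences, so nothing is read from those shares.

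**Figure D1:**
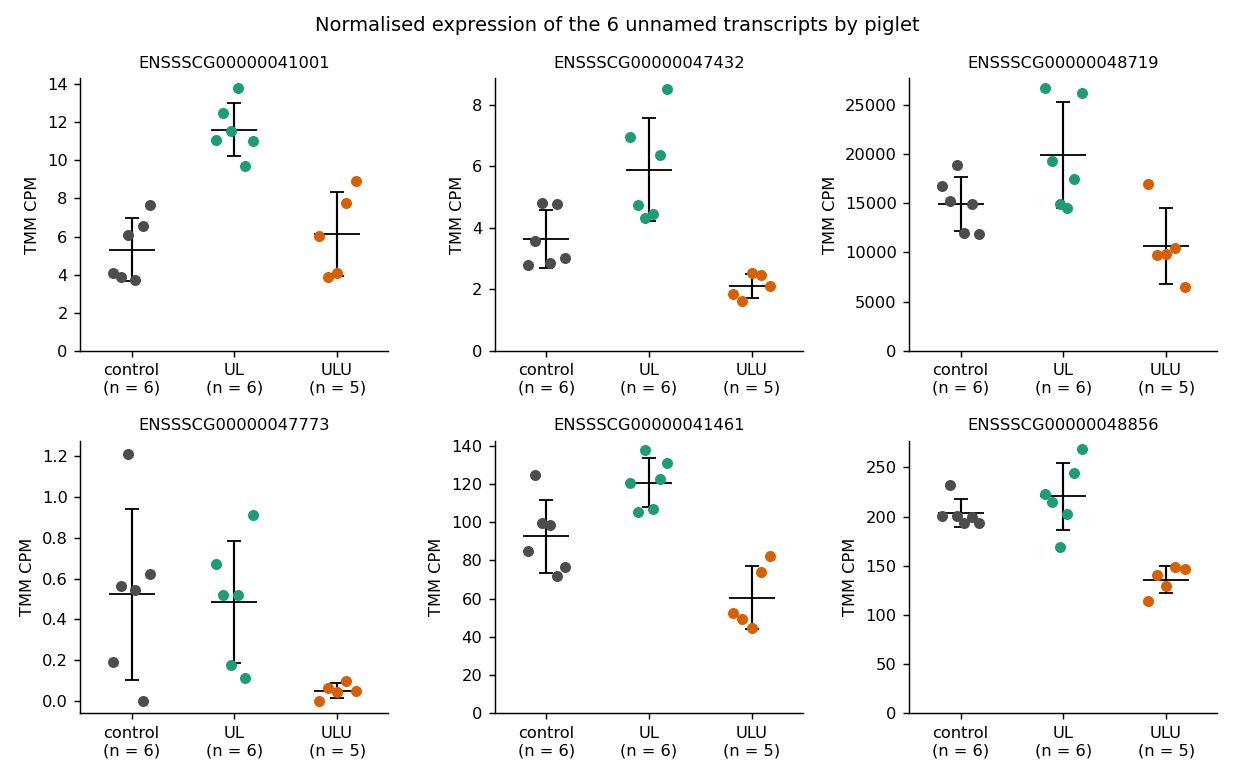
TMM CPM (vertical axes, linear) of each of the 6 transcripts in the 17 libraries, by diet, where points are piglets, the horizontal bar is the mean and the whiskers are 1 SD. All 5 ULU piglets lie below all 6 UL piglets in every panel but that of ENSSSCG00000048719, in which 1 ULU piglet reached 16972 CPM. For ENSSSCG00000047773 the nearest ULU and UL piglets had 2 reads each and are apart by library size alone.

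ENSSSCG00000048719 was by far the most abundant of the 6. It lies on the minus strand of chromosome 4 (chr4:53952716-53953839, Sscrofa11.1), is labelled a long noncoding RNA in the deposited counts, and has 1036 exonic bases in 3 exons. The gaps between its exons were 40 and 48 bases long. No RefSeq gene of the same assembly overlapped it, and the nearest annotated genes were 301730 bases away at higher coordinates (ENSSSCG00000045469, no read in any library) and 652440 bases away at lower coordinates (ENSSSCG00000049545, 0 to 3 reads).

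Its level was 11879, 11935, 14946, 15192, 16754 and 18872 CPM in the 6 control piglets. In UL it was 14506, 14936, 17486, 19317, 26231 and 26657 CPM. In ULU it was 6427, 9727, 9791, 10461 and 16972 CPM. Of the 5 ULU piglets 4 lay below every control and UL piglet, and ULU replicate 40 lay within the range of both. The means were 14930 ± 2728 (SD, n = 6), 19856 ± 5397 (SD, n = 6) and 10676 ± 3854 CPM (SD, n = 5), and the fitted log2(fold change) was 0.41 (SE 0.21) in UL vs control, -0.48 (SE 0.22) in ULU vs control and -0.90 (SE 0.23) in ULU vs UL. Without ULU replicate 40 the last 2 values were -0.71 and -1.12. This single transcript took on average 1.57% ± 0.253, 1.99% ± 0.513 and 0.989% ± 0.353 of all counted reads (SD, n = 6, 6 and 5) in control, UL and ULU.

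ENSSSCG00000048856 and ENSSSCG00000047432 are neighbours on chromosome 2. ENSSSCG00000047432 is on the plus strand (chr2:6749400-6750686, 1222 exonic bases in 3 exons with gaps of 27 and 38 bases), and ENSSSCG00000048856 starts 1454 bases further on, on the minus strand (chr2:6752140-6757157, 4403 exonic bases in 3 exons). The span of a RefSeq long noncoding RNA, LOC102163816, holds 55.7% of the exonic bases of ENSSSCG00000047432 and 100% of those of ENSSSCG00000048856. FRMD8, which codes for a FERM domain protein, lies on the side of higher coordinates, 65809 bases from ENSSSCG00000048856. Neither reference table gives a symbol for the unnamed genes of this locus, and none is given here.

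**Figure D2:**
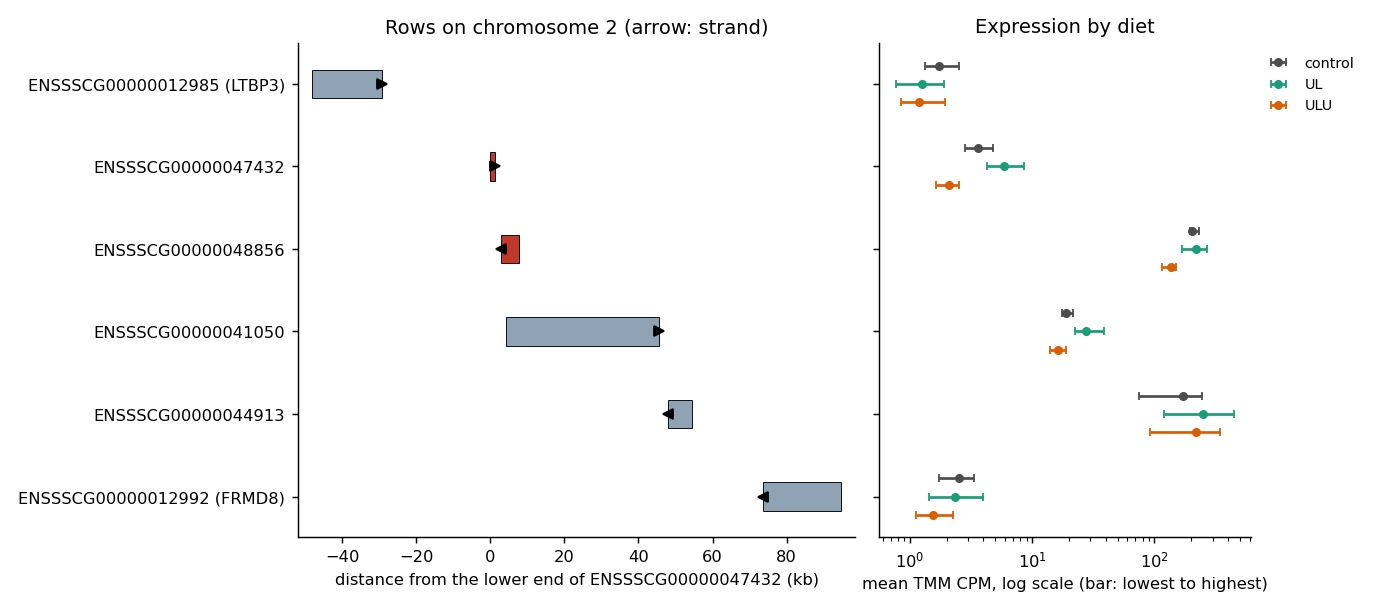
Selected annotated genes from LTBP3 to FRMD8 on chromosome 2, drawn to scale as distance from the lower end of ENSSSCG00000047432 in kb (left, arrows give the strand, members in red), with the mean TMM CPM by diet on a log axis (right, bars from the lowest to the highest library). The ULU libraries of ENSSSCG00000048856 lie at 115 to 149 CPM, below its control and UL libraries, while the ranges of ENSSSCG00000044913 overlap among the diets.

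ENSSSCG00000048856 was at 193.7, 193.9, 199.9, 200.7, 201.0 and 232 CPM in control. In UL it was at 169, 203, 215, 223, 245 and 269 CPM. In ULU it was at 115, 129, 141, 146 and 149 CPM. Every ULU piglet was below every control and every UL piglet, and the control and UL piglets overlapped. The means were 204 ± 14.5 (SD, n = 6), 220 ± 34.5 (SD, n = 6) and 136 ± 14.1 CPM (SD, n = 5), that is 1.497-fold lower in ULU than in control (log2(fold change) -0.58, SE 0.11) and 1.62-fold lower than in UL (-0.70, SE 0.11), with 0.11 (SE 0.11) in UL vs control. It was the least variable of the 6 within diets, with a SD of 0.17 on the log2 CPM scale, at percentile 8.39 of the genes tested. When library totals alone were used in place of TMM, its difference in ULU vs control was -0.78. That scaling moved the median of all genes in the same comparison to -0.21, from -0.028.

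ENSSSCG00000047432 had a lower level per length (3.26 against 43.1 RPKM), with 25 to 135 reads per library. It was at 2.80, 2.84, 3.01, 3.58, 4.78 and 4.79 CPM in control, at 4.31, 4.46, 4.74, 6.37, 6.95 and 8.51 CPM in UL, and at 1.62, 1.83, 2.09, 2.46 and 2.51 CPM in ULU. The ULU piglets were again below every control and UL piglet, and 30 of 36 pairs of a UL and a control piglet had the higher value in UL. The log2(fold change) was 0.69 (SE 0.21) in UL vs control, -0.78 (SE 0.23) in ULU vs control and -1.47 (SE 0.23) in ULU vs UL, a 2.78-fold lower level with the enzyme.

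The third gene of this locus, ENSSSCG00000041050 (chr2:6753571-6794973, plus strand), also lies in the span of LOC102163816 and shares with ENSSSCG00000048856, on the opposite strand, 2724 bases that are 61.9% of the exonic bases of the latter. The counting is not stated to use strand, so reads of the 2 genes in those bases cannot be told apart. Over its 1679 unshared bases alone the counts of ENSSSCG00000048856 would correspond to 113 RPKM, in place of 43.1 over all exonic bases. Because of the shared bases, tests of ENSSSCG00000041050 may not be free of the selection of ENSSSCG00000048856. ENSSSCG00000041050 was not itself selected, and its comparisons were tested. Its level was 19.1 ± 1.72, 27.6 ± 6.14 and 16.3 ± 2.30 CPM (SD, n = 6, 6 and 5) in control, UL and ULU. Its difference had a log2(fold change) of 0.53 (SE 0.13, adjusted p = 0.155 by the quasi-likelihood test of edgeR, adjusted over all genes tested after Benjamini and Hochberg) in UL vs control, and all 6 UL piglets were above all 6 control piglets. In ULU vs UL it was -0.75 (SE 0.14, adjusted p = 0.0552 by the same edgeR test), with all 5 ULU piglets below all 6 UL piglets, and in ULU vs control -0.22 (SE 0.14, edgeR adjusted p = 0.411). None of the 3 passed the threshold.

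The genes around this locus gave other orders. ENSSSCG00000044913 (minus strand, 40201 bases from ENSSSCG00000048856 at higher coordinates) was at 172 ± 73.5, 249 ± 113 and 219 ± 92.7 CPM (SD, n = 6, 6 and 5) in control, UL and ULU. Its edgeR adjusted p was 0.613 for UL against control, 0.637 for ULU against control and 0.903 for ULU against UL. FRMD8 was at 2.55, 2.34 and 1.55 CPM (log2(fold change) -0.72, SE 0.28, edgeR adjusted p = 0.176 in ULU vs control). The nearest gene on the lower side, ENSSSCG00000047551, had at most 2 reads in a library.

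ENSSSCG00000041001 was the only one of the 6 whose UL piglets stood above all others. It lies on the plus strand of chromosome 16 (chr16:74603214-74609835, 6392 exonic bases in 2 exons with a gap of 230 bases), within the span of the RefSeq gene ADCY2, which codes for an adenylyl cyclase, an enzyme that makes the second messenger cyclic AMP. In the Ensembl annotation the span of ADCY2 (ENSSSCG00000017101) stays 78919 bases away from it and is on the minus strand, opposite to this transcript. The 2 annotations thus draw ADCY2 differently. The strand of the RefSeq gene is not in the table used here.

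Control piglets had 3.71, 3.87, 4.07, 6.06, 6.54 and 7.64 CPM of ENSSSCG00000041001. UL piglets had 9.73, 11.04, 11.07, 11.5, 12.5 and 13.8 CPM. ULU piglets had 3.90, 4.07, 6.03, 7.74 and 8.90 CPM. All UL values were above all control and ULU values, while control and ULU overlapped. The level was 2.18-fold higher in UL than in control (log2(fold change) 1.12, SE 0.22) and 1.89-fold lower in ULU than in UL (-0.92, SE 0.23), and ULU vs control was 0.20 (SE 0.23). These values rest on 60 to 291 reads per library.

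The 3 genes annotated beside it within the ADCY2 span were tested, and none was called. ENSSSCG00000049394 (plus strand, 39829 bases lower) was at 3.57 ± 1.16, 5.46 ± 0.796 and 3.79 ± 2.37 CPM (SD, n = 6, 6 and 5), with a log2(fold change) of 0.61 (SE 0.30, edgeR adjusted p = 0.478) in UL vs control and -0.53 (SE 0.32, edgeR adjusted p = 0.582) in ULU vs UL. ENSSSCG00000048006 (minus strand, 46054 bases lower) was at 0.634 ± 0.316, 1.43 ± 0.823 and 1.24 ± 0.463 CPM, with a log2(fold change) of 1.17 (SE 0.43, edgeR adjusted p = 0.335) in UL vs control and 0.95 (SE 0.44, edgeR adjusted p = 0.253) in ULU vs control. Its mean in ULU was thus also above that of control, while ULU vs UL was -0.21 (SE 0.43, edgeR adjusted p = 0.905). The annotated ADCY2 itself was at 13.4 ± 2.35, 16.1 ± 2.68 and 17.3 ± 4.07 CPM, an order in which ULU was highest. Its edgeR adjusted p was 0.579 for UL and 0.231 for ULU against control, and 0.877 between the seaweed diets. On the other side the nearest gene, ENSSSCG00000044516, was 167814 bases away and had at most 2 reads in a library.

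ENSSSCG00000041461 lies on an unplaced scaffold (AEMK02000489.1, 37959 to 44045, minus strand), with 5438 exonic bases in 3 exons. The scaffold also carries 2 genes of 1870 bases each (ENSSSCG00000047299, plus strand, and ENSSSCG00000043761, minus strand). Among several shorter genes on it is ENSSSCG00000037563 (153 bases, plus strand). All genes of this scaffold together took 0.732 to 1.92% of counted reads. Of the exonic bases of ENSSSCG00000041461, 84.8% are shared with no other gene. Among the opposite-strand genes that overlap the rest, ENSSSCG00000041875 shares 474 bases, ENSSSCG00000047299 shares 278 and ENSSSCG00000034634, with no read in any library, shares 75. The span of ENSSSCG00000047868, which had no read either, overlaps it without shared exonic bases. Neither reference table names any of these genes, and no other copy of the sequence was looked for.

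**Figure D3:**
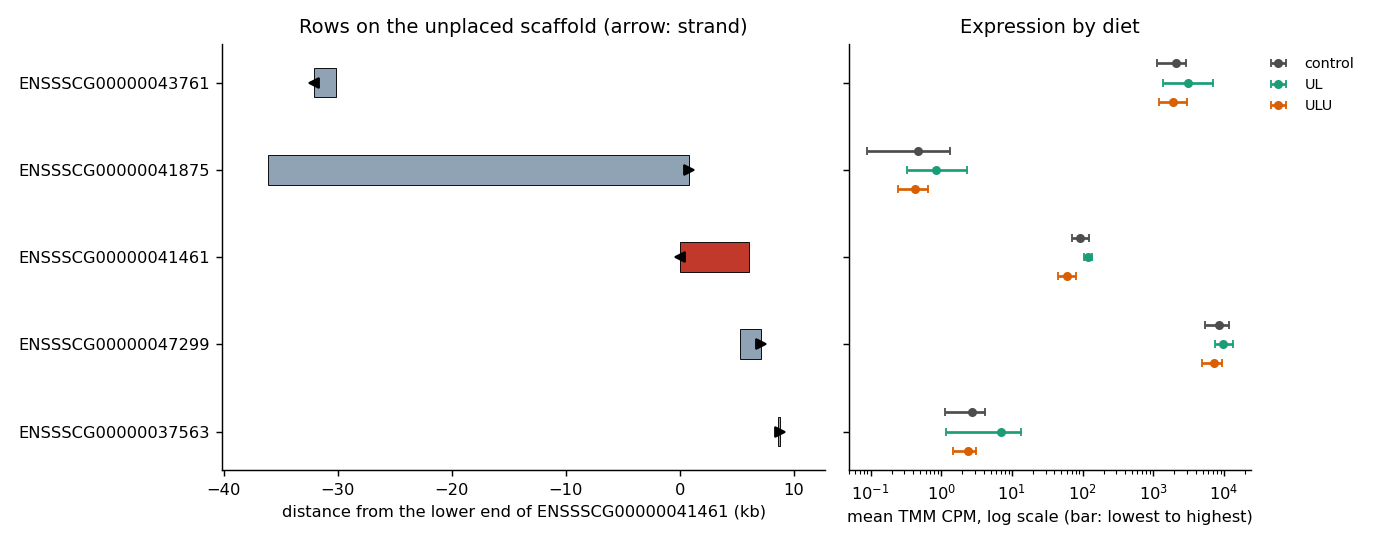
ENSSSCG00000041461 and the 4 genes overlapping or near it on its unplaced scaffold that had enough reads to be tested, drawn to scale as distance from its lower end in kb (left, arrows give the strand, the member in red), with the mean TMM CPM by diet on a log axis (right, bars from the lowest to the highest library). ENSSSCG00000041461 has ULU libraries at 44.5 to 82.2 CPM and UL libraries at 105 to 138 CPM, while the diets overlap for the 4 other genes.

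In control, ENSSSCG00000041461 was at 71.9, 76.5, 84.7, 98.4, 99.4 and 125 CPM. In UL it was at 105, 107, 120, 122, 131 and 138 CPM, and in ULU at 44.5, 49.3, 52.7, 74.1 and 82.2 CPM. UL and ULU did not overlap, whereas 2 ULU piglets lay within the control range. It was 1.99-fold lower in ULU than in UL (log2(fold change) -0.99, SE 0.17) and 1.53-fold lower than in control (-0.61, SE 0.16), with 0.38 (SE 0.16) in UL vs control.

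The abundant ENSSSCG00000047299, which overlaps it, was at 8583 ± 2493, 9826 ± 2292 and 7221 ± 1656 CPM (SD, n = 6, 6 and 5) in control, UL and ULU, with log2(fold change) of 0.20 (SE 0.20, edgeR adjusted p = 0.783) in UL vs control, -0.25 (SE 0.21, edgeR adjusted p = 0.566) in ULU vs control and -0.44 (SE 0.21, edgeR adjusted p = 0.466) in ULU vs UL. ENSSSCG00000041875 had 2 to 36 reads per library and edgeR adjusted p of 0.660, 0.942 and 0.631 in the same order. ENSSSCG00000037563 was at 2.70 ± 1.04, 7.10 ± 4.24 and 2.43 ± 0.640 CPM. Its log2(fold change) of 1.38 (SE 0.40) in UL vs control had an adjusted p of 0.201 by edgeR and of 0.0355 by DESeq2, so its call depended on the tool. Of the scaffold's genes farther off, ENSSSCG00000038753 was at 0.254, 1.24 and 0.376 CPM in control, UL and ULU, also highest in UL. ENSSSCG00000032599 was at 0.925, 1.76 and 1.78 CPM, highest in ULU. The scaffold's share of reads was 0.757 to 1.49% in control, 1.02 to 1.92% in UL and 0.732 to 1.01% in ULU, and within diets it had r = 0.29 with ENSSSCG00000041461 (permutation test, n = 17, p = 0.198, adjusted p = 0.371; rho = 0.25, permutation p = 0.320), and r = 0.31 without the 2 farthest libraries. ENSSSCG00000045913, 2826 bases from ENSSSCG00000041461, had at most 5 reads in a library and was not tested. It had 8 reads in control, 18 in UL and 3 in ULU. In CPM its ULU libraries were below its UL libraries, yet the nearest of them had 1 read each and differed by library size alone.

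ENSSSCG00000047773 was close to the limit of detection. It lies on the minus strand of chromosome 1 (chr1:67009301-67016246, 4205 exonic bases in 3 exons), overlaps no RefSeq gene, and is flanked by ENSSSCG00000032685, at the position of the RefSeq long noncoding RNA LOC100515111 (38191 bases lower), and by ENSSSCG00000031404 (23927 bases higher, at most 1 read in a library). The next genes on the higher side are SIM1, a transcription factor of hypothalamic development, and ASCC3, a helicase of DNA repair and ribosome quality control.

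Its reads numbered 0, 3, 10, 12, 13 and 20 in the control libraries, 2, 4, 9, 11, 13 and 14 in UL, and 0, 1, 1, 1 and 2 in ULU. Only ULU had every library at or below 3 reads, and 1 control library had no read, so ULU and control overlapped. In CPM the ULU libraries were all below the UL libraries, yet the nearest of them, ULU replicate 43 and UL replicate 31, had 2 reads each and differed by library size alone. Summed over libraries, 58 control reads, 53 UL reads and 5 ULU reads were counted. Relative to the summed TMM-scaled library sizes, the ratio of ULU to control was 0.0969, that of ULU to UL 0.105, and that of UL to control 0.927. These ratios describe the reads counted, and at 5 reads the counting error is large. The fitted log2(fold change) was -3.23 (SE 0.86) in ULU vs control, -3.12 (SE 0.86) in ULU vs UL and -0.11 (SE 0.63) in UL vs control, and the last changed sign, to 0.31, without control replicate 23.

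The flanking ENSSSCG00000032685 was also sparse, with 0 to 21 reads per library, and had a log2(fold change) of -1.55 (SE 0.72, edgeR adjusted p = 0.252) in ULU vs control and -1.20 (SE 0.73, edgeR adjusted p = 0.591) in ULU vs UL. SIM1 was at 40.3 ± 17.6, 32.7 ± 5.92 and 26.4 ± 10.51 CPM (SD, n = 6, 6 and 5; edgeR adjusted p = 0.256 in ULU vs control), and ASCC3 at 27.4 ± 4.06, 26.1 ± 6.05 and 20.6 ± 3.59 CPM (edgeR adjusted p = 0.143 in ULU vs control).

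Set side by side, the 6 transcripts separated the diets most often in ULU vs UL. In UL vs control 1 of 6 had no overlap between the diets (higher, against 0.852% of genes tested in either direction), in ULU vs control 2 of 6 (both lower, against 3.39%), and in ULU vs UL 5 of 6 (all lower, against 1.75%). Among these 5, the nearest libraries of ENSSSCG00000047773 had 2 reads each and were apart by library size alone. The selection used these contrasts, so nothing is read from the counts, and the comparisons share libraries. The median log2(fold change) of the 6 was 0.40, -0.60 and -0.96, against -0.0027, -0.028 and -0.021 over all genes tested. For scale, edgeR called 0% of all genes in UL vs control, 0.415% in ULU vs control and 0.0141% in ULU vs UL (adjusted p under 0.05 and at least 1 log2 unit apart, up or down), while 1541, 2678 and 1540 genes had an unadjusted p under 0.05 and DESeq2 called 12, 114 and 6.

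**Figure D4:**
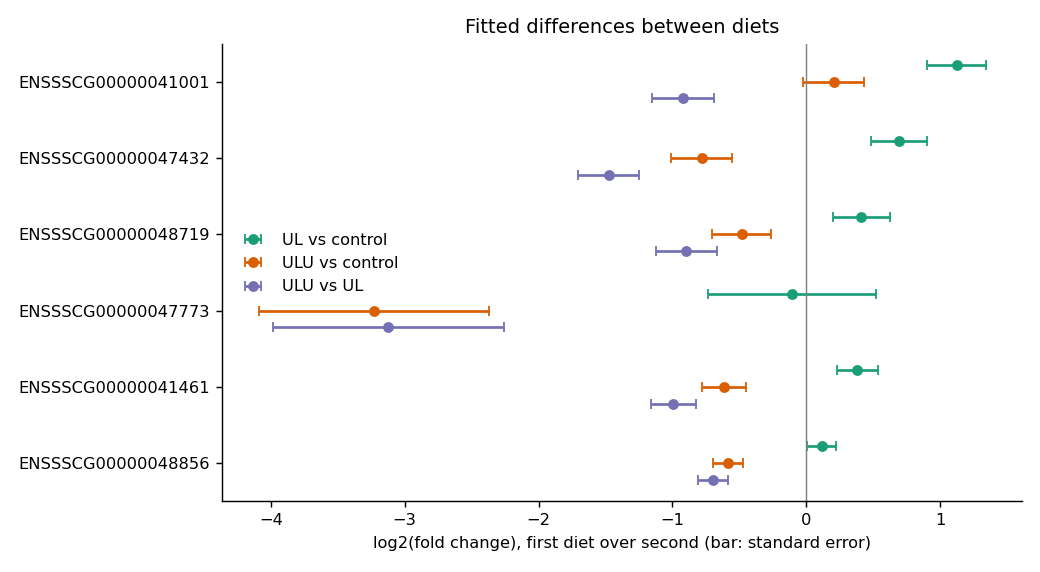
Fitted log2(fold change) of the 6 transcripts (horizontal axis, first diet over second) in the 3 comparisons, with bars of 1 standard error. All 6 points of ULU vs UL are below 0, from -3.12 to -0.70, and the bars of ENSSSCG00000047773, with at most 20 reads in a library, are the widest at 0.63 to 0.86.

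The genes around the 6 transcripts were not selected on their own values, and 34 distinct genes overlapped them or were among the 3 nearest on either side, themselves not counted. Of these, 18 had enough reads to be tested. edgeR called 0 of 18 in each of the 3 comparisons, with 3 at an unadjusted p under 0.05 in UL vs control, 6 in ULU vs control and 4 in ULU vs UL. That is 16.7%, 33.3% and 22.2% of the 18, against 10.8%, 18.9% and 10.8% of all genes tested. DESeq2 called 1, 0 and 0, the 1 being ENSSSCG00000037563. The median log2(fold change) of the 18 was 0.23, -0.19 and -0.47, and 7, 12 and 15 of them were lower in the first diet, against 50.5%, 53.0% and 53.0% of all genes. Several of the 18 share a scaffold or a locus and are not independent of each other. Some also share exonic bases with a selected transcript, so their tests may not be free of the selection.

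Whether a transcript and its neighbours varied together among piglets on the same diet was tested after the mean of the diet was taken from each log2 CPM value, which removes the differences used for the selection. For the 5 transcripts with a median of at least 20 reads there were 19 pairs with a tested gene nearby, of which 1 was the pair of neighbouring transcripts ENSSSCG00000047432 and ENSSSCG00000048856, and 0 had an adjusted p under 0.05, with 4 at an unadjusted p under 0.05. ENSSSCG00000041001 and ENSSSCG00000049394 had Pearson's r = 0.69 (two-sided permutation test within diets, n = 17, p = 0.0184, adjusted p = 0.174) and Spearman's rho = 0.74 (permutation p = 0.00679, adjusted p = 0.129), and r was 0.71 without the 2 libraries farthest from the median.

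Within the chromosome 2 locus, ENSSSCG00000048856 and ENSSSCG00000041050, which share exonic bases, had r = 0.62 (permutation p = 0.0366, adjusted p = 0.174; rho = 0.55, permutation p = 0.0449, adjusted p = 0.334). This rested in part on the extreme libraries, as r was 0.30 without the 2 farthest ones and 0.80 without ULU replicate 40, in which case the pair passed the threshold. ENSSSCG00000047432 had r = 0.57 with ENSSSCG00000041050 (permutation p = 0.0295, adjusted p = 0.174; rho = 0.51, permutation p = 0.0528) and r = 0.56 with ENSSSCG00000048856 (permutation p = 0.0362, adjusted p = 0.174; rho = 0.50, permutation p = 0.0704), and these were 0.46 and 0.47 without the 2 farthest libraries. ENSSSCG00000041461 had r = 0.32 with the overlapping ENSSSCG00000047299 (permutation p = 0.258, adjusted p = 0.408).

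**Figure D5:**
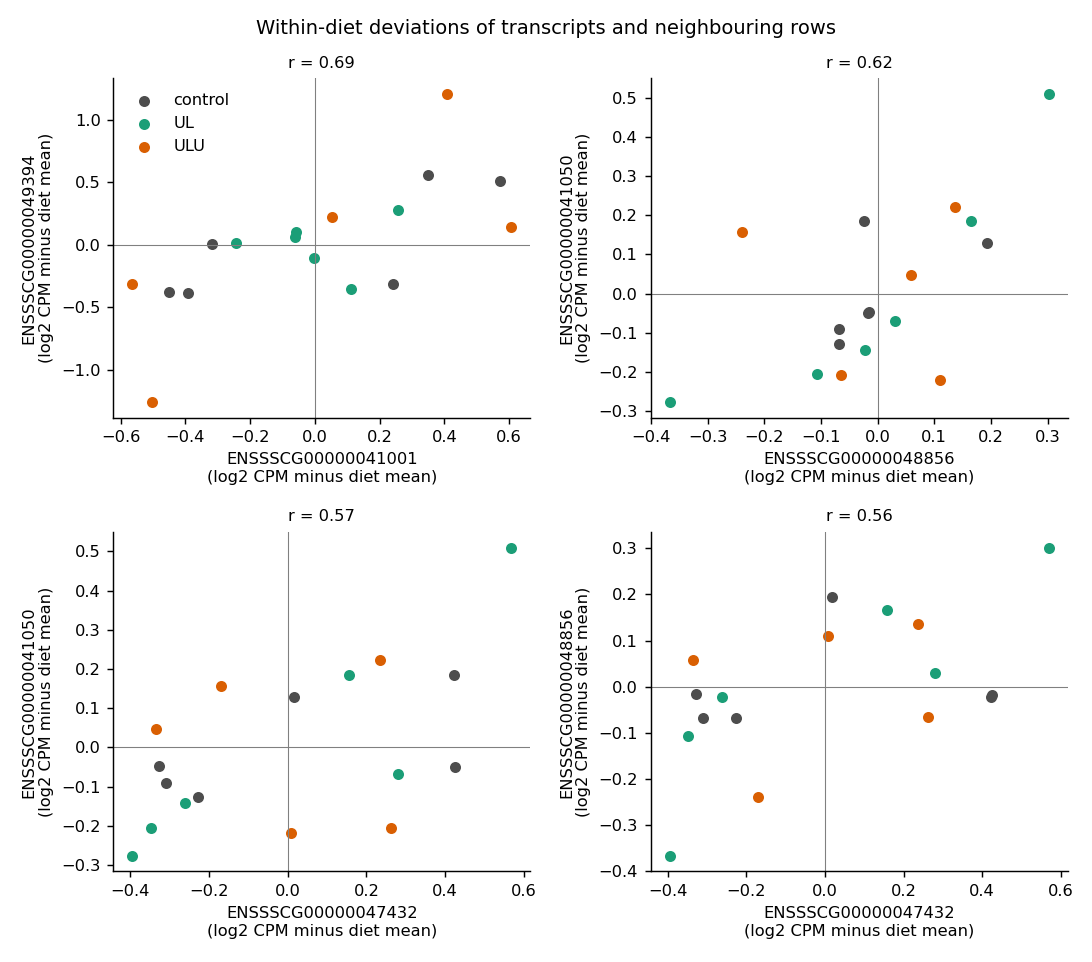
Deviation of log2 CPM from the diet mean in the 17 libraries for 4 pairs of a transcript (horizontal axes) and a neighbouring gene (vertical axes), coloured by diet, with Pearson's r above each panel. The 4 values of r are 0.69, 0.62, 0.57 and 0.56, and none of these pairs had an adjusted permutation p under 0.05.

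Among the transcripts themselves, 0 of 10 pairs had an adjusted p under 0.05 within diets. The smallest was 0.362, for the neighbours ENSSSCG00000047432 and ENSSSCG00000048856, the pair that was also among the 19 above and is adjusted here over 10. Of 15 pairs of a transcript with the mitochondrial share, the share of the unplaced scaffold or the library total, 0 had an adjusted p under 0.05. The highest r was 0.61, between ENSSSCG00000048856 and the scaffold's share (permutation p = 0.0198, adjusted p = 0.297; rho = 0.58, permutation p = 0.0195, adjusted p = 0.146), and it was 0.35 without the 2 farthest libraries. Leaving out the genes of the mitochondrial chromosome before the fit left the differences of ENSSSCG00000048856 in ULU vs control at -0.57 and of ENSSSCG00000047432 at -0.77.

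The 3 genes most like each transcript, by r of the same deviations over 17 libraries and among 12129 genes with a mean of at least 1 CPM, are given as a description, since each is the highest of many values. For ENSSSCG00000041001 they were TARBP1 (r = 0.91), a gene for an RNA methyltransferase, ENSSSCG00000049525 (r = 0.87), an unnamed gene at the position of PDZRN3, and NOSIP (r = 0.80). For ENSSSCG00000047432 they were BTG2 (r = 0.77), an antiproliferative gene, OTUD1 (r = 0.77), a deubiquitinase, and PANK4 (r = 0.75). ENSSSCG00000048719 was most like C11orf58 (r = 0.89), RBM14 (r = 0.88), an RNA-binding protein of paraspeckles, and POLR2K (r = 0.87), a subunit of RNA polymerases. ENSSSCG00000041461 was most like ZBTB40 (r = 0.87), NALCN (r = 0.82), a sodium leak channel, and DGCR2 (r = 0.81), and ENSSSCG00000048856 was most like PHYKPL (r = 0.80), TMEM131 (r = 0.79) and ASPSCR1 (r = 0.77), which tethers glucose transporter vesicles. Without the diet means removed, r was 0.50 for TARBP1, 0.88 for ENSSSCG00000049525 and -0.07 for ZBTB40.

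By position 2 of the 6 transcripts had all and 1 had 55.7% of the exonic bases within a RefSeq gene, 2 overlapped none, and ENSSSCG00000041461 could not be paired because scaffold names differ between the tables. The lack of a symbol was part of the selection, so these numbers are not set against those of all genes. Exon gaps under 50 bases occurred in 2 of the 6 transcripts (ENSSSCG00000047432 and ENSSSCG00000048719), against 19.2% of the genes tested that have more than 1 exon and 16.1% of those without a symbol. Exonic bases shared with an opposite-strand gene occurred in ENSSSCG00000041461 and ENSSSCG00000048856 and in none of the other 4.

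Genes on unplaced scaffolds, which could not be paired, count here as genes without a RefSeq partner. To place the transcripts without a RefSeq partner, all 649 tested genes of that kind were compared between diets. edgeR called 0, 3 and 0 of them in UL vs control, in ULU vs control and in ULU vs UL. The 3 included ENSSSCG00000047773, which was selected on such contrasts. With the 6 transcripts left out, edgeR called 0, 2 and 0 of 646 genes (0%, 0.310% and 0%), with 67, 70 and 49 at an unadjusted p under 0.05, and DESeq2 called 1, 5 and 0. These were 10.4%, 10.8% and 7.59% at an unadjusted p under 0.05, against 10.8%, 18.9% and 10.8% of all genes tested. Their median log2(fold change) was 0.13, 0.045 and -0.07. The 2 called genes were both lower in ULU than in control, ENSSSCG00000038679 on another unplaced scaffold (log2(fold change) -1.39, SE 0.36, edgeR adjusted p = 0.0439, 3 to 22 reads per library, diets apart) and ENSSSCG00000042377 on chromosome 8 (chr8:109908493-109912048; -1.09, SE 0.29, edgeR adjusted p = 0.0498, diets overlapping). Both were near the threshold. The number called of the 649, with the selected transcripts included, ranged from 0 to 9 when single libraries were left out, the 9 without control replicate 25. Of the 3163 tested genes without a symbol other than the 6, edgeR called 0, 15 (3 higher and 12 lower, 0.474% against 0.415% of all genes) and 0, with 312, 431 and 268 at an unadjusted p under 0.05, and DESeq2 called 2, 30 and 2.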

How the data were processed

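RNA of longissimus muscle from 17 piglets was sequenced. Per the labels and the study's methods, the authors trimmed reads with fastp, aligned them with HISAT2 to Sscrofa11.1 and counted them with featureCounts. The deposited counts are raw reads per Ensembl gene, and their header names featureCounts 2.0.1 and annotation 104, while the labels name Subread 1.5.1. No option for strand, multiply placed reads or reads over several genes is given. A deposited column with the mean count of the 17 libraries was used only as a check.

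The 6 members, the marker lists and the tests were chosen with earlier results of these data known. The counts were filtered, TMM normalized and fitted in 1 model of all libraries with edgeR 4.0.16 (quasi-likelihood F test, Benjamini-Hochberg adjustment over 14203 genes) in R 4.3.3, and DESeq2 1.42.0 was an alternative. A prior count of 2 went into log2 CPM. The standard error of a log2(fold change) was its size over the root of its F value. The fits were checked on simulated data. P-values measure the spread between the piglets sequenced, and 5 ULU libraries were available of the 6 piglets named in the labels. No pair of libraries of the same diet agreed within sampling noise, and pairs across diets were not examined.

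A gene was paired with the RefSeq gene whose span held at least 10% of its exonic bases. The planned match of strands was not made, as the RefSeq table used here has no strand, and genes on unplaced scaffolds could not be paired, since scaffold names differ. Correlations used 100000 permutations within diets. Genes named are the members, genes that overlap them, the nearest gene on each side, neighbours called or correlated, the 3 most alike genes and the called genes without a RefSeq partner. Added as landmarks after their values were seen were LTBP3, FRMD8, ADCY2, SIM1, ASCC3, ENSSSCG00000044913, ENSSSCG00000043761, ENSSSCG00000048006, ENSSSCG00000045913, ENSSSCG00000038753 and ENSSSCG00000032599. Sequences of the transcripts were not used here. Results of 1 item are not reported here.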

Additional observations from a re-analysis of the deposited data

Results flagged for a closer look

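Of 39 groups of libraries examined for a library far from the others, 3 had one, and chance flags about 1 in 20 groups. ENSSSCG00000048856 was at 232 CPM in control replicate 22, with the next control library at 201 CPM. The ULU libraries lay below all control libraries with or without it, and the difference in ULU vs control ranged from -0.62 to -0.53 when single libraries were left out. ENSSSCG00000032685, the gene next to ENSSSCG00000047773, was at 1.27 CPM (21 reads) in control replicate 23, with the next at 0.655 CPM. ENSSSCG00000041875, which overlaps ENSSSCG00000041461, was at 2.34 CPM (36 reads) in UL replicate 32, with the next at 0.925 CPM. The last 2 genes are close to the limit of detection.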

How the results depend on the processing

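Library totals alone, the removal of mitochondrial genes and the class of genes without a symbol were alternatives chosen after seeing the data. Library totals alone moved the median of all genes to -0.08 in UL vs control, -0.21 in ULU vs control and -0.13 in ULU vs UL. They moved ENSSSCG00000048856 in ULU vs control to -0.78 and ENSSSCG00000041001 in the same comparison from 0.20 to 0.0029. No fitted difference of the 6 transcripts changed sign under another normalization, filter, set of libraries or tool, where ENSSSCG00000047773 could not be fitted with only the libraries of both diets in ULU vs control or ULU vs UL because it failed the filter there, and with single libraries left out only that of ENSSSCG00000047773 in UL vs control did (-0.38 to 0.31). The count of called genes without a RefSeq partner in ULU vs control was 3 with edgeR. It was 0 without the filter on low counts, 0 with only the libraries of both diets, 5 with DESeq2 and 15 without the limit on the fold change. It was 5 with pairing at 50% of exonic bases, 16 for genes without a symbol and 0 to 9 with single libraries left out. In ULU vs UL it was 0, and 1 without the limit on the fold change, 1 for genes without a symbol and 0 to 1 with single libraries left out. The selected transcripts were not left out of these counts, and no call of a selected transcript is read from them. With the selected transcripts left out, edgeR called 2 genes without a RefSeq partner and 15 without a symbol in ULU vs control. In ULU vs UL it called 0 of either kind. DESeq2 called 1 of the genes without a RefSeq partner and 1 neighbour in UL vs control, against 0 by edgeR. The number of correlated pairs was 0 to 1 with single libraries left out, and 0 with Spearman's rho, a prior count of 0.5 or library totals alone. The cause of these shifts was not tested. Per the study's methods the piglets were pair-fed, but the labels do not give the pairs and the diets share no replicate numbers. No paired analysis was therefore possible. Depth limits ENSSSCG00000047773 most, since 3 reads were 0.130 to 0.195 CPM and its ULU libraries held 0 to 2 reads.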
